A study of Mus musculus with 6 samples.

Results

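The genes examined here are the liver enzymes that turn cholesterol into conjugated bile acids, together with the pair of nuclear receptors that control them. They are 10 of the 55357 genes in the count table: Cyp7a1, Cyp8b1, Cyp27a1, Cyp7b1, Cyp39a1, Akr1d1, Nr0b2, Nr1h4, Baat and Slc27a5. They were chosen by name, with earlier results of these data known. Each was found through its Ensembl identifier in the GENCODE M39 annotation of GRCm39. RNA from the livers of wild-type male C57BL6/J mice, 8 to 9 weeks old, was sequenced. The mice were gavaged daily for 7 days with esculetin, a coumarin derivative, or with the 2.5% Tween-80 vehicle. All of them ate a control diet with 10% of its kcal as fat during 4 days, followed by 3 days on a high-fat diet with 60%, so both groups were fed the high-fat diet when tissue was taken. The question for these genes was whether esculetin changed their transcripts under this lipid-rich feeding. The labels disagree on the esculetin dose, which is 180 mg/kg/d by name and protocol and 90 mg/kg/d by treatment entry, so no dose is attached to the esculetin group. There were 3 libraries per group, each pooled from a pair of mice, and p-values here measure the spread between such pools.

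Bile acids are made in hepatocytes and are the main route by which the body disposes of cholesterol. In the classical route CYP7A1 takes the first and rate-limiting step, and CYP8B1 adds the 12α-hydroxyl group that sets the share of cholic acid. In the alternative route CYP27A1 oxidizes the side chain first and CYP7B1 then 7α-hydroxylates the oxysterol, while CYP39A1 does this for 24-hydroxycholesterol and AKR1D1 reduces the ring for all routes. Bile acids activate the receptor FXR (Nr1h4), which induces SHP (Nr0b2), a repressor of Cyp7a1 and Cyp8b1, and SLC27A5 and BAAT finish the product by activating it with coenzyme A and joining it to taurine or glycine.

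Total counts per library lay between 27957713 and 34920922, and the 3 esculetin libraries were the deepest. Levels are given as CPM, counts scaled to library size with edgeR's TMM factors. By total counts alone, before those factors, 3 counts correspond to 0.0859 to 0.107 CPM. A gene is called where edgeR's quasi-likelihood test gave an unadjusted p under 0.05 and the fold change exceeded 1.5, the study's own thresholds. Adjusted p-values are Benjamini-Hochberg values over all 14433 genes tested. The summed CPM of 6 hepatocyte markers was 91382 to 94530 in the vehicle libraries and 87857 to 95535 in the esculetin libraries, of which Alb alone gave about 60450 and 58357 on average. None of the 6 was called, and 5 overlapped between the groups. Serpina1c, one of a family of near-identical genes, had 751 ± 54.5 and 1073 ± 88.2 CPM without overlap. Its log2 difference of 0.52 was under the fold threshold (unadjusted p = 0.000235, adjusted p = 0.132, edgeR). How reads shared within that family were counted was not tested. In bulk tissue, fewer cells of a type and less RNA per cell cannot be told apart.

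Of the 10 genes, all passed the filter on low counts and 2 were called. Nr0b2 was called higher and Cyp7b1 lower with esculetin. Thus 1 of 10 was called higher, where 1.37% of all genes tested were, and 1 of 10 lower, where 1.76% were. An unadjusted p under 0.05 was reached by 4 of the 10, namely Cyp7b1, Cyp39a1, Akr1d1 and Nr0b2, against 11.9% of all genes tested. An adjusted p under 0.05 was reached by 0 of the 10 and by 6 of all genes, and the number of members reaching it was 1 with DESeq2 (Nr0b2), 0 with limma-voom and 3 without the filter on low counts. In 4 of the 10, Cyp39a1, Akr1d1, Nr0b2 and Slc27a5, every esculetin library lay above every vehicle library, which held for 9.2% of all genes tested. The opposite arrangement held for 0 of the 10 and for 8.24% of all genes. The median log2 fold change of the 10 genes was 0.095, beside -0.0080 over all genes tested. Each of these counts rests on 4 genes or fewer, so nothing is read from them about the list as a whole.

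**Figure D1:**
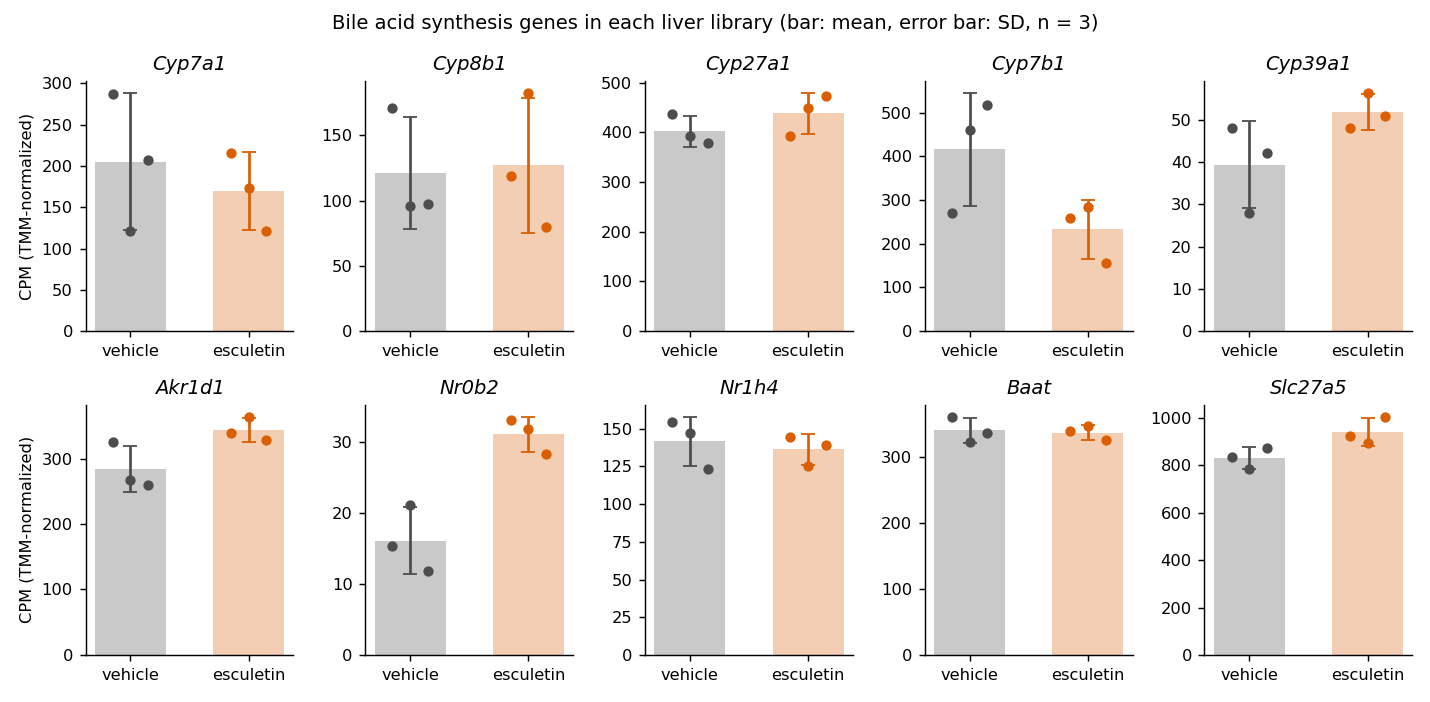
Each panel plots 1 of the 10 genes, with TMM-normalized CPM on the vertical axis from 0, a point for each library, a bar for the group mean and an error bar for the SD (n = 3). Nr0b2 is the panel with the widest gap between the groups relative to the gene's own level (11.8 to 21.2 CPM with vehicle, 28.4 to 33.1 CPM with esculetin), while in Cyp7b1 the lowest vehicle library (270 CPM) lies below the highest esculetin library (285 CPM).

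Nr0b2 (ENSMUSG00000037583) encodes SHP, a nuclear receptor without a DNA-binding domain that acts as a corepressor. It lies on chromosome 4 of GRCm39 from 133280678 to 133283847 on the plus strand and has 2 exons. Its promoter is shown because it was the only one of the 10 genes called higher. The sequence is the 250 bases before the RefSeq start (GRCm38.p6 table), found once on that chromosome in GRCm39 at chr4:133280437-133280686, plus strand. Its last 9 bases lie in the first exon of the GENCODE models. Capitals mark the letters CAAGGCCA, a form of the binding motif of LRH-1 (Nr5a2), on the strand of the gene, and the E-box CACGTG that overlaps them.
Nr0b2: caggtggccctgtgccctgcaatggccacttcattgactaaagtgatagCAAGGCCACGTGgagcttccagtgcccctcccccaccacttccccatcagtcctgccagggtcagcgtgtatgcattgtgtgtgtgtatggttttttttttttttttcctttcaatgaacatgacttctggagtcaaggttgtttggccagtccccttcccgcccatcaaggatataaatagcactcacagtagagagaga

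In this window CAAGGCCA lies from -201 to -194 and CACGTG from -195 to -190, counted from the RefSeq start. Both strands were searched in 300-base windows that run to 50 bases after the start. CAAGGCCA was held by 2.40% of 32851 mouse promoters and CACGTG by 7.15%. RefSeq windows were at hand for 5 of the 10 genes, Cyp8b1, Cyp27a1, Akr1d1, Nr0b2 and Nr1h4, and not for Cyp7a1, Cyp7b1, Cyp39a1, Baat and Slc27a5. The other LRH-1 form, CAAGGTCA, was in 0 of the 5 (1.56% of all promoters). Its half-site AGGTCA, which every CAAGGTCA holds, was in 2 of the 5, Akr1d1 and Nr1h4 (16.3% of all). The C/EBP motif TTGCNNAA was in 1 of the 5, Akr1d1 (10.8% of all), and the D-box letters TTATGTAA (0.938% of all) and TTACGTAA (0.119% of all) were in 0 of the 5. Not all of these windows lie before the gene as GENCODE draws it. Of their 250 upstream bases, 239 in Akr1d1 and 250 in Cyp27a1 are in annotated exons, and the window of Nr1h4 lies within the outermost bounds of that gene, before its inner start sites. These matches describe letters only and say nothing of binding.

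The transcript of Nr0b2 measured 15.3, 21.2 and 11.8 CPM in vehicle libraries 1, 2 and 3 and 33.1, 32.0 and 28.4 CPM in esculetin libraries 1, 2 and 3. All 3 esculetin libraries were high and close together, and the groups did not overlap. The mean went from 16.1 ± 4.75 to 31.2 ± 2.49 CPM (SD, n = 3 per group), a fold change of 1.93 with a 95% confidence interval of 1.46 to 2.55. The log2 fold change was 0.95 (SE 0.18, edgeR, unadjusted p = 0.000393, adjusted p = 0.132), the 41st smallest p of all genes tested. These values rest on 324 to 691 reads per vehicle library and 950 to 1109 per esculetin library. With any single library left out the log2 fold change stayed between 0.77 and 1.20 and the p at or under 0.00188. The adjusted p was 6.42e-05 with DESeq2, so the adjusted call depends on the tool.

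Nr1h4 (ENSMUSG00000047638, chromosome 10, 89289742 to 89369497, minus strand) encodes FXR, the bile acid sensor that induces Nr0b2. Its transcript measured 154, 147 and 123 CPM with vehicle and 144, 125 and 139 CPM with esculetin. The ranges overlapped almost fully, at means of 142 ± 16.3 and 136 ± 10.1 CPM (n = 3 each). The log2 difference was -0.057 (SE 0.10, adjusted p = 0.867), and the interval of the fold change, 0.824 to 1.12, lies within 1.5-fold on either side. Its sign turned without vehicle replicate 1 (0.0096) and without esculetin replicate 2 (0.0025).

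Cyp7a1 (ENSMUSG00000028240, chromosome 4, 6265612 to 6275633, minus strand, 6 exons) had 288, 121 and 207 CPM with vehicle and 215, 173 and 121 CPM with esculetin. The esculetin libraries lay inside the vehicle range but for the lowest, which all but equalled the lowest vehicle library. The means were 205 ± 83.2 and 170 ± 47.2 CPM (n = 3 each), a log2 difference of -0.27 (SE 0.28, adjusted p = 0.755). The interval of the fold change, 0.535 to 1.28, holds both no change and a 1.5-fold lower level. The sign rested on vehicle replicate 1 alone, and the size moved with single libraries. Without vehicle replicate 1 the log2 difference was 0.05, and without vehicle replicate 2 it was -0.54 with an unadjusted p = 0.0435, a fold change still under 1.5.

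Cyp8b1 (ENSMUSG00000050445, chromosome 9, 121743422 to 121745371, minus strand) is a gene of 1 exon. It had 171, 95.9 and 97.0 CPM with vehicle and 119, 182 and 80.02 CPM with esculetin, so each group held 1 library well above its other members. The means were 121 ± 42.8 and 127 ± 51.6 CPM (n = 3 each) and the log2 difference was 0.068 (SE 0.29, adjusted p = 0.955). The interval of the fold change reached from 0.667 to 1.65, which holds a rise of more than 1.5-fold. The log2 difference was below 0 without vehicle replicate 2 (-0.073), without vehicle replicate 3 (-0.067) and without esculetin replicate 2 (-0.29).

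Cyp7b1 (ENSMUSG00000039519) is the oxysterol 7α-hydroxylase of the alternative route and is known for higher expression in male than in female mouse liver. It lies on chromosome 3 from 18117411 to 18297740 on the minus strand, with 6 exons. It had 270, 460 and 517 CPM in vehicle libraries 1, 2 and 3 and 258, 285 and 157 CPM in esculetin libraries 1, 2 and 3. Vehicle libraries 2 and 3 stood above all esculetin libraries, while vehicle library 1 lay between esculetin libraries 1 and 2, so the groups overlapped. The mean went from 416 ± 129 to 233 ± 67.4 CPM (n = 3 each), a fold change of 0.561 (95% confidence interval 0.378 to 0.831). The log2 fold change was -0.83 (SE 0.25, edgeR, unadjusted p = 0.00850, adjusted p = 0.255). Leaving out any single library kept the call, with log2 fold changes from -1.07 to -0.61 and p at or under 0.0366. The adjusted p was 0.273 with DESeq2 and 8.97e-08 without the filter on low counts.

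Cyp27a1 (ENSMUSG00000026170, chromosome 1, 74752314 to 74777056, plus strand), the mitochondrial sterol 27-hydroxylase that feeds CYP7B1, had 438, 392 and 378 CPM with vehicle and 393, 449 and 473 CPM with esculetin. The groups overlapped, with means of 402 ± 31.3 and 438 ± 40.8 CPM (n = 3 each) and a log2 difference of 0.12 (SE 0.094, adjusted p = 0.651). The interval of the fold change was 0.941 to 1.26. Prkag3 on the opposite strand shares 1088 exon bases with it (32.8% of its exons), and the strand setting of the counting is not given in the sources used here. Prkag3 itself had at most 29 counts in any library, against up to 15833 for Cyp27a1.

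Cyp39a1 (ENSMUSG00000023963, chromosome 17, 43978281 to 44062322, plus strand, 12 exons) had 48.0, 27.96 and 42.1 CPM with vehicle and 48.1, 56.3 and 51.0 CPM with esculetin. All esculetin libraries were above all vehicle libraries, but esculetin library 1 and vehicle library 1 were all but level. The means were 39.4 ± 10.3 and 51.8 ± 4.18 CPM (n = 3 each). The log2 difference was 0.40 (SE 0.17, unadjusted p = 0.0402, adjusted p = 0.393), and the fold change was 1.32 (1.02 to 1.71), under the fold threshold. Only 3 of the 6 fits that left out 1 library kept p under 0.05, and it was 0.119 without esculetin replicate 2.

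Akr1d1 (ENSMUSG00000038641, chromosome 6, 37506822 to 37545751, plus strand), the 5β-reductase shared by all routes, had 325, 268 and 259 CPM with vehicle and 339, 364 and 328 CPM with esculetin. The groups did not overlap, though vehicle library 1 lay just under the lowest esculetin library. The means were 284 ± 35.8 and 344 ± 18.6 CPM (n = 3 each), a fold change of 1.21 (1.04 to 1.41). The log2 difference of 0.28 (SE 0.099, unadjusted p = 0.0198, adjusted p = 0.320) did not reach the fold threshold. Of the 6 fits without 1 library, 3 kept p under 0.05, and the p was 0.0729 without vehicle replicate 2.

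The genes of the last steps of the pathway had the smallest spread between libraries of a group among the 10 genes. Slc27a5 (ENSMUSG00000030382, chromosome 7, 12722273 to 12732137, minus strand), the bile acid-CoA ligase, had 834, 783 and 874 CPM with vehicle and 925, 892 and 1005 CPM with esculetin. The groups did not overlap, but the means of 830 ± 45.6 and 941 ± 58.2 CPM (n = 3 each) differed by 0.18 on the log2 scale (SE 0.082, unadjusted p = 0.0536, adjusted p = 0.432). Baat (ENSMUSG00000039653, chromosome 4, 49489289 to 49506563, minus strand), which conjugates the activated bile acid, had 362, 324 and 337 CPM with vehicle and 340, 347 and 326 CPM with esculetin. Those values were intermixed, at means of 341 ± 19.3 and 338 ± 11.1 CPM and a log2 difference of -0.014 (SE 0.076, adjusted p = 0.966). The fold change intervals, 0.998 to 1.29 for Slc27a5 and 0.880 to 1.12 for Baat, both lie within 1.5-fold. The sign of Baat turned without vehicle replicate 1 (0.032) and without esculetin replicate 3 (0.014).

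**Figure D2:**
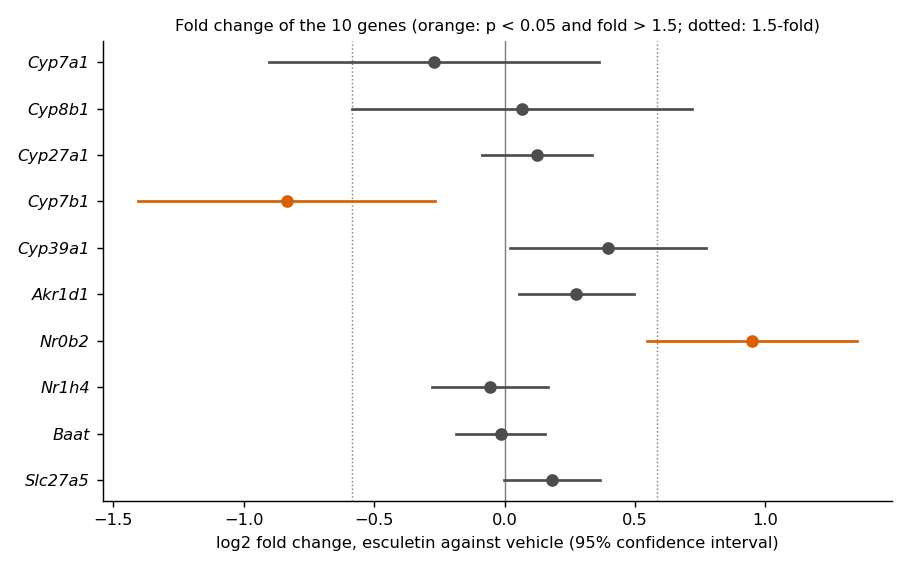
The horizontal axis is the log2 fold change of esculetin against vehicle, with a point for each gene, a line for its 95% confidence interval and dotted lines at a fold change of 1.5. Only Nr0b2 (0.95) and Cyp7b1 (-0.83) are drawn in orange as called, and the intervals of Cyp27a1, Akr1d1, Nr1h4, Baat and Slc27a5 lie between the dotted lines.

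The 10 genes differed widely in their spread between libraries of a group. The spread was measured as the SD of log2(CPM + 0.5) within groups and set beside 7236 genes with a mean of at least 10 CPM, whose median was 0.115. Cyp8b1 (0.54), Cyp7a1 (0.53) and Cyp7b1 (0.48) were at percentiles 99.0, 99.0 and 98.6 of those genes. Nr0b2 (0.30) and Cyp39a1 (0.30) were at percentiles 94.97 and 94.6. These are the classical hydroxylases, both 7α-hydroxylases of oxysterols and the repressor. The remaining genes lay nearer the middle of that range or below it, with Nr1h4 at 0.14 (percentile 66.0), Akr1d1 at 0.14 (62.7), Cyp27a1 at 0.12 (55.8), Slc27a5 at 0.084 (28.04) and Baat at 0.066 (15.7).

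Within the vehicle group alone, the highest library exceeded the lowest 2.37-fold for Cyp7a1, 1.91-fold for Cyp7b1 and 1.78-fold for Cyp8b1. The libraries did not rank alike, since vehicle library 1 was the highest for Cyp7a1 and Cyp8b1 and the lowest for Cyp7b1. The coefficient of variation in the vehicle group was 40.6% for Cyp7a1, 35.3% for Cyp8b1 and 31.0% for Cyp7b1, and 5.66% for Baat and 5.49% for Slc27a5.

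**Figure D3:**
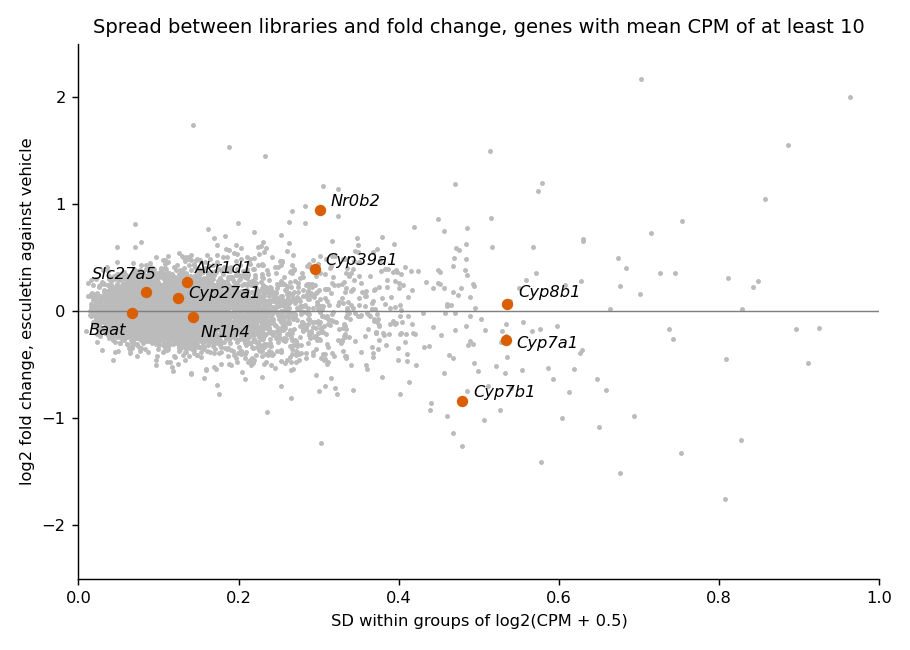
Each grey point is a gene with a mean of at least 10 CPM, with the SD within groups of log2(CPM + 0.5) on the horizontal axis and the log2 fold change on the vertical axis, and orange points are the 10 genes (14 genes lie outside the axes). Cyp7a1, Cyp8b1 and Cyp7b1 sit far to the right, at SDs of 0.48 to 0.54, and Nr0b2 at an SD of 0.30 lies higher than the other 9.

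Levels between genes were compared per length, as CPM per kb of exon over the 6 libraries. Slc27a5 was the most abundant at 310.9 (274.9 to 353), followed by Baat at 155.3 (148.2 to 165.6) and Cyp27a1 at 126.6 (113.8 to 142.4). These top 3 ranges did not overlap each other or the ranges below them. Akr1d1 (68.3, from 56.4 to 79.2), Cyp8b1 (63.6, from 41.0 to 93.5) and Cyp7a1 (44.9, from 29.0 to 68.9) came next, each overlapping its neighbour. The lowest were Nr1h4 at 28.6, Cyp7b1 at 27.5, Cyp39a1 at 14.8 and Nr0b2 at 10.99 CPM per kb, whose neighbouring ranges also overlapped. By group, the mean of Cyp7b1 was above that of Nr1h4 with vehicle (35.3 and 29.2) and below it with esculetin (19.8 and 28.1). The exons of Cyp7b1 sum to 11786 bases, which lowers its value per kb.

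Ratios within a library do not depend on scaling between libraries. The ratio of Cyp7b1 to Cyp27a1 per kb, alternative-route enzymes in sequence, was 0.174, 0.331 and 0.385 with vehicle and 0.185, 0.179 and 0.0935 with esculetin. Vehicle library 1 lay among the esculetin values, and the log2 ratio differed by -0.95 (p = 0.3, exact permutation test, two-sided, n = 3 per group, smallest possible p 0.1). With 1 library left out that difference lay between -1.29 and -0.63, the latter without esculetin replicate 3. The ratio of Cyp7b1 to Cyp7a1 was 0.333, 1.34 and 0.885 with vehicle and 0.424, 0.581 and 0.459 with esculetin, a log2 difference of -0.60 (p = 0.4, same exact permutation test). That difference rested on single libraries, being -1.17 without vehicle replicate 1 and -0.17 without vehicle replicate 2. The ratio of Cyp8b1 to Cyp7a1, which relates the 12α-hydroxylase to the first step, was 1.27, 1.70 and 1.005 with vehicle and 1.18, 2.25 and 1.42 with esculetin, a log2 difference of 0.27 (p = 0.6, exact permutation). Adjusted over the 3 ratios, each p was 0.6, and without esculetin replicate 2 the last difference was -0.0015.

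Around the 10 genes, 89 names of other genes of bile acid synthesis, transport, regulation, the clock and cholesterol supply were listed. Star and Bmal1 each stood there under a second name, Stard1 and Arntl. All 87 genes so named were found, and 79 had enough counts for the test. Of these 79, 2 were called, both higher with esculetin. That is 2.53% over both directions, where 452 of all 14433 genes tested were called, 1.37% higher and 1.76% lower. An unadjusted p under 0.05 was reached by 12 of the 79 (9 higher, 3 lower), against 11.9% of all genes tested, and an adjusted p under 0.05 by 0. The same shares of all genes stand as background to the counts per list below, from which nothing is read about a list as a whole. The median log2 fold change was -0.017, with 37 genes above and 42 below 0. The called pair were Abcc3 and Cebpb.

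Abcc3 encodes an exporter in the basolateral membrane of hepatocytes that returns conjugates, bile acids among them, to blood. It had 110, 74.6 and 66.2 CPM with vehicle and 160, 209 and 195 CPM with esculetin, so that the groups did not overlap. Its log2 fold change was 1.17 (SE 0.18, edgeR, unadjusted p = 6.94e-05, adjusted p = 0.0771). Cebpb, a C/EBP transcription factor of the acute-phase response and gluconeogenesis, had 24.9, 35.6 and 30.2 CPM with vehicle and 53.7, 43.4 and 40.3 CPM with esculetin, again without overlap. Its log2 fold change was 0.60 (SE 0.14, unadjusted p = 0.00211, adjusted p = 0.175), just past the fold threshold of 0.58. Cebpb was not called with total counts, without vehicle replicate 1 or without esculetin replicate 1, while Abcc3 was called in all 13 other fits. Without esculetin replicate 2 the number called was 4, with Abcb1a and Ciart added, and without vehicle replicate 1 it was 3, being Abcc3, Slco1a4 and Ephx1.

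Of 13 further synthesis enzymes tested, 0 were called and 2, Cyp2c70 and Stard5, had an unadjusted p under 0.05. Stard5, which encodes a sterol-binding protein, had a log2 difference of 0.20 (SE 0.070) with all esculetin libraries above all vehicle libraries. Cyp2c70, which makes the muricholic acids of mice, had 854, 1050 and 1305 CPM with vehicle and 718, 865 and 919 CPM with esculetin, with overlap at 854 to 919. Its log2 difference was -0.36 (SE 0.15, unadjusted p = 0.0376, adjusted p = 0.388). Hsd3b7, whose product oxidizes the 3β-hydroxyl group after 7α-hydroxylation, had 0 counts in all 6 libraries. In the annotation 52.6% of its exon bases are shared with Gm49388, a gene on the same strand that also had 0 counts in every library. How reads on such shared bases were counted was not tested, so the count of 0 is given as listed.

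Among 17 transport genes tested, 1 was called (Abcc3) and 4 had an unadjusted p under 0.05. Slc10a1, the sodium-dependent uptake carrier NTCP, had 712 ± 34.99 CPM with vehicle and 672 ± 6.60 with esculetin (n = 3 each), a log2 difference of -0.083 (SE 0.074, adjusted p = 0.707). Its esculetin libraries (665 to 679 CPM) all lay below its vehicle libraries (680 to 749 CPM). Abcb11, the canalicular bile salt export pump and an FXR target, had 554 ± 43.5 and 510 ± 86.2 CPM, a log2 difference of -0.12 (SE 0.12, adjusted p = 0.746). The libraries of Abcb11 overlapped, and neither carrier passed the test. The other 3 with an unadjusted p under 0.05 were the canalicular sterol transporter gene Abcg8 (log2 difference 0.34, groups apart), Slco1a4 (0.46) and Ephx1 (0.40), the latter pair with overlap.

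Among 23 regulators tested, 1 was called (Cebpb) and 3 had an unadjusted p under 0.05. Fgfr4 and its co-receptor Klb, which receive the intestinal hormone FGF15, had log2 differences of -0.16 (SE 0.12, adjusted p = 0.645) and -0.063 (SE 0.12, adjusted p = 0.874). Fgf15 itself had 0 counts in all 6 libraries. Nr5a2 (LRH-1, an activator of Cyp7a1 and Cyp8b1) had 86.8 ± 7.09 CPM with vehicle and 83.8 ± 6.24 with esculetin, Hnf4a 502 ± 77.0 and 544 ± 37.8 CPM, and the oxysterol receptor Nr1h3 (LXRα) 71.9 ± 1.97 and 75.2 ± 5.83 CPM (n = 3 each). Their log2 differences were -0.051 (adjusted p = 0.864), 0.11 (adjusted p = 0.737) and 0.066 (adjusted p = 0.794), each within the spread between libraries.

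The other 2 regulators with an unadjusted p under 0.05, named after their values were seen, were the xenobiotic receptors Nr1i2 (PXR) and Nr1i3 (CAR), with log2 differences of 0.30 (SE 0.072, unadjusted p = 0.00196, adjusted p = 0.172) and 0.39 (SE 0.14, unadjusted p = 0.0244, adjusted p = 0.345). All esculetin libraries were above all vehicle libraries in both, below the fold threshold. Among 17 clock genes tested 0 were called and 2 had an unadjusted p under 0.05, namely Clock (-0.25) and Per3 (-0.29), with a median log2 fold change of -0.049 over the list. Among 12 genes of cholesterol supply and LXR targets 0 were called and 1, Mylip (0.30), had an unadjusted p under 0.05, with a median of -0.082.

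**Figure D4:**
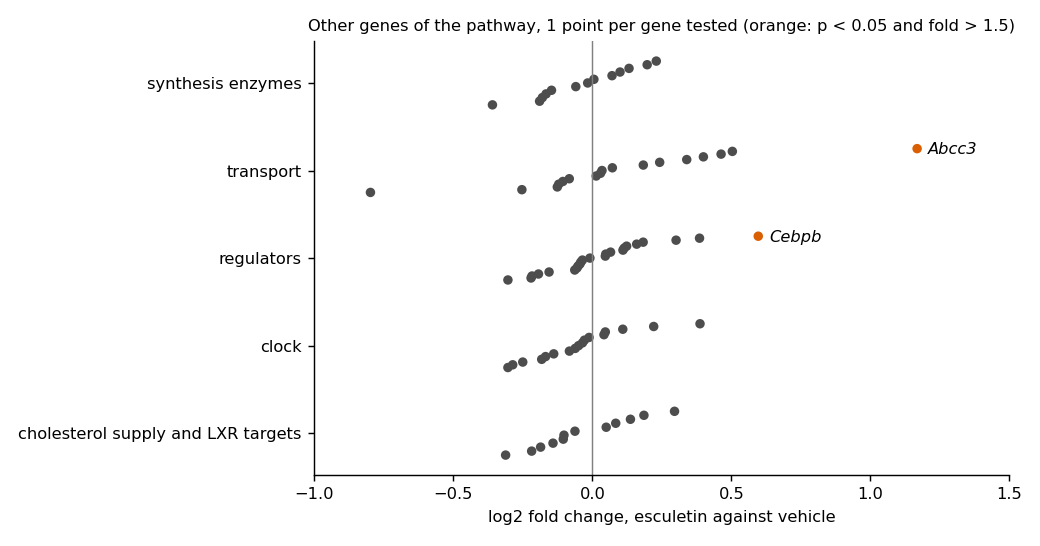
Each point is 1 of the other pathway genes tested, placed by its log2 fold change of esculetin against vehicle and grouped by list (3 genes stand in both the regulator and the clock list). Abcc3 (1.17) and Cebpb (0.60), in orange, are the called genes, and the medians of the 5 lists lie between -0.082 and 0.035.

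By Pearson correlation of log2 CPM over the 6 libraries among 7235 other genes with a mean of at least 10 CPM, the closest to Cyp7a1 were Vdac3 (r = 0.988), Vps4a (0.981) and Snx7 (0.973). The closest to Cyp7b1 were Fat1 (r = 0.990), Senp5 (0.989) and Lig3 (0.984). Over 6 libraries and this many genes, such values are a description only. The top 3 genes of Cyp7a1 and of Cyp7b1 had no gene in common.

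Markers of other liver cells were set beside these results. The summed CPM of 5 cholangiocyte markers was 39.5 to 80.4 with vehicle and 30.3 to 45.7 with esculetin, and 1 of the 5, Spp1, was called lower (log2 fold change -0.75, from 56.0 to 33.4 CPM). Spp1 made up most of that sum, and the other 4, Krt19, Krt7, Epcam and Sox9, had log2 differences of 0.24, 0.63, 0.057 and 0.34 without passing the test, at mean levels of 0.678 to 2.65 CPM. The sums for 5 Kupffer cell markers were 253 to 345 and 264 to 272 CPM, and for 4 endothelial markers 101 to 131 and 110 to 124 CPM, with 0 called in either list. The 5 stellate cell markers summed to 279 to 321 and 254 to 335 CPM, and 1 of them, Des, was called higher at 1.83 and 2.95 CPM, while Lrat (-0.099), Col1a1 (-0.37), Reln (-0.12) and Dcn (0.046) did not pass the test. The sums for 3 intestinal markers were 122 to 153 and 120 to 186 CPM and for 3 erythroid markers 123 to 148 and 110 to 166 CPM, with 0 called and Fgf15 at 0 throughout. Fabp2, at means of 137 and 150 CPM, made up nearly all of the intestinal sum, and Vil1 had 0.458 and 0.298 CPM. Of the erythroid markers, Alas2 was lower in every esculetin library than in any vehicle library (log2 difference -0.24, edgeR, unadjusted p = 0.00970, adjusted p = 0.262). Hbb-bs (0.24) and Hba-a1 (0.60) were higher, with overlap, and did not pass the test. The 3 adipocyte markers summed to 0 with vehicle and to at most 0.202 CPM with esculetin. The part of these cells in the values of the 10 genes was not tested.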

How the data were processed

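The authors mapped the paired-end liver reads with HISAT2 2.2.1 (GRCm39), summed them by gene using featureCounts, and deposited these raw counts, which are not normalized. The strand and multimapping settings are not given in the sources used here. Identifiers were matched to GENCODE M39 (54749 of 55357), and libraries were grouped by their labels. The closest replicate pair had a chi-square per gene of 24.2, so no library was a copy.

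Counts were filtered with filterByExpr, scaled with TMM and compared in R 4.3.3 by edgeR's quasi-likelihood test (version 4.0.16), 3 vehicle against 3 esculetin libraries, where the study used limma. SE is the log2 fold change over the square root of F. The test was checked on simulated data. Alternative tests were limma-voom (limma 3.58.1) and DESeq2 1.42.0. Alternative scalings were total counts and size factors, alternative filters were none and a minimum of 10 counts per library, and alternative calls used an adjusted p or no fold threshold. Each library was also left out in turn, and a replicate block was fitted.

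The 10 genes, the lists and the markers were chosen with earlier results of these data known. Named beside them were pathway genes that were called, a set of 9 chosen whatever their value, and the 3 genes most like Cyp7a1 and Cyp7b1. Other genes named, which are the remaining pathway genes with an unadjusted p under 0.05, those called in single fits and the markers, were named after their values were seen.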

Additional observations from a re-analysis of the deposited data

How the results depend on the processing

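With 3 pooled libraries per group, the 95% intervals of the fold change were wide for Cyp7a1 (0.535 to 1.28) and Cyp8b1 (0.667 to 1.65). The cause of the shifts below was not tested. Both called genes, Nr0b2 and Cyp7b1, were called in all 13 other fits. Of the 10 genes, 2 were called, 0 with an adjusted p under 0.05 and 4 without a fold threshold. The same counts for all genes were 452, 6 and 1711, with 776 called without the filter and 411 to 588 with 1 library left out. For the 79 other pathway genes they were 2, 0 and 12, with 1 called with total counts and 1 to 4 with 1 library left out. Among 130 alternative values of single genes, 122 kept their direction and call and 8 changed sign, all in fits without 1 library and none in a called gene. Over those fits the log2 difference ranged from -0.54 to 0.052 for Cyp7a1, from -0.29 to 0.40 for Cyp8b1, from -0.15 to 0.0096 for Nr1h4 and from -0.047 to 0.032 for Baat, and that of the ratio of Cyp8b1 to Cyp7a1 from -0.0015 to 0.46, of Cyp7b1 to Cyp7a1 from -1.17 to -0.17 and of Cyp7b1 to Cyp27a1 from -1.29 to -0.63. Same-numbered libraries did not deviate together (correlations -0.092, -0.028 and 0.019), and 0 libraries correlated best with their own number, so the numbers do not pair them. With the replicate block 399 genes were called, the same 2 of the 10 genes among them, with log2 fold changes of 0.98 for Nr0b2 and -0.82 for Cyp7b1.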
